A study of Drosophila melanogaster with 8 samples.

Results

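Heads of Drosophila melanogaster females aged 5 days, in which an RNAi against Upf1 was driven in neurons, were compared with heads that expressed PA36, transcript by transcript. The libraries were chosen by the column names of the authors' table of TPM (a measure of each transcript's length-normalised share of the reads). They comprise 1 library of Elav>UPF1 RNAi and 2 libraries of Elav>PA36, which is 3 of the 7 libraries with a named column and of the 8 samples in the labels. The header of the table holds 10 names and each line holds 11 cells. Names were read from the left, so the last value column has no name and was not used, and every value below rests on this reading. UPF1 RNAi is therefore a single library, with no replicate of its own. Elav is a driver active in all neurons, and every genotype carries it. The PA36 flies make a proline-alanine repeat peptide, and the labels name no control hairpin, so the expression of a hairpin and the loss of Upf1 cannot be told apart. In whole heads, glia, fat body, muscle and other cells in which Elav is silent contribute RNA too.

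Other genotypes, which also lack PA36, entered the fit and are given beside the comparison, namely 2 libraries of Elav>PR36 (a proline-arginine repeat) and 2 of Elav>(G4C2)36 (the GGGGCC repeat). Per the labels, each genotype had 2 replicates with 40 heads in total, kept at 24 °C and 60% humidity. Whether replicates were separate cultures is not said in the labels, and the p-values cover only the spread among these samples, possibly a technical one. Sequencing depth cannot be read from TPM and is unknown. Summed over all listed transcripts, TPM ranged from 712972 (UPF1 RNAi, the lowest) to 877933 per library, and 14499 to 15273 of 26309 listed transcripts reached 1 TPM. In PA36 replicate 1 and PR36 replicate 1 heat shock genes were high, with sums over 14 genes of 997 TPM in UPF1 RNAi heads, 8929 and 606 TPM in PR36 heads, 1755 and 1516 TPM in (G4C2)36 heads, and 7324 and 517 TPM in PA36 heads. Differences are given as log2(TPM + 1) in UPF1 RNAi minus the mean of PA36, with the standard error (SE) of a limma fit over 7 libraries and the Benjamini-Hochberg adjusted p over all features tested. A feature counts as called at an adjusted p below 0.05.

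Nonsense-mediated mRNA decay (NMD) removes mRNAs on which a ribosome stops in an unusual place. The helicase Upf1 is recruited by the release factors at such a stop codon and is bridged by Upf2 and Upf3. The kinase Smg1, encoded by nonC in flies, phosphorylates Upf1, after which the endonuclease Smg6 cuts the mRNA and Smg5 links it to general decay. In mammals an exon junction complex that remains downstream of the stop codon marks a transcript for decay. In Drosophila a long 3′ untranslated region (3′ UTR) is the better known mark, and the exon junction complex is not needed for all targets. Transcripts that join an exon after the stop codon, transcripts with long 3′ UTRs, host transcripts of small nucleolar RNAs (snoRNAs) and isoforms with premature stops are the classes in which higher levels are looked for when Upf1 is lost. In flies Gadd45, a stress gene that acts on MAP kinase signalling, is a known target.

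The targeted gene did not separate the groups. Upf1 (X:11899996-11905371, BDGP6) stood at 11.3 TPM in UPF1 RNAi heads, against 10.3 and 19.1 TPM in PA36 heads. It stood at 18.6 and 19.6 TPM in PR36 heads and at 18.2 and 16.02 TPM in (G4C2)36 heads. The UPF1 RNAi value thus lay below 5 of the 6 other libraries and above PA36 replicate 1, and the fit gave -0.29 on the log2 scale (SE 0.37, limma adjusted p = 0.96). Its isoform Upf1-RA was listed at 8.60 TPM in UPF1 RNAi heads, against 10.3 and 12.6 TPM in PA36 heads. Upf1-RB was listed at 2.74 TPM in UPF1 RNAi heads, against 0 and 6.55 TPM in PA36 heads, so the low gene value of PA36 replicate 1 comes with an isoform listed at 0. In bulk heads, a loss of RNA in neurons and a change in the share of neurons cannot be told apart, for Upf1 or for any gene below.

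Of the other NMD factors, Smg6 and Smg5 stood highest in UPF1 RNAi among all 7 libraries, and no factor passed the test. Over all transcripts, with each library centred on its median, UPF1 RNAi was highest for 18.7%. The share over all genes was not counted. Smg6 (3R:25029429-25033465) stood at 73.2 TPM in UPF1 RNAi heads, against 37.3 and 43.6 TPM in PA36 heads and between 38.2 and 52.5 TPM in the other 4 libraries (log2 fold change 0.85, SE 0.28, limma adjusted p = 0.57). Smg5 (2L:13898828-13904661) stood at 71.9 TPM in UPF1 RNAi heads, against 44.2 and 55.8 TPM in PA36 heads (log2 fold change 0.52, SE 0.31, adjusted p = 0.94). Upf3 stood at 11.3 TPM in UPF1 RNAi heads, against 8.54 and 8.37 TPM in PA36 heads, and Upf2 at 7.13 TPM in UPF1 RNAi heads, against 5.73 and 6.62 TPM. The Smg1 kinase gene nonC stood at 9.96 TPM in UPF1 RNAi heads, between the 4.38 and 11.2 TPM of PA36, and without PA36 replicate 1 its difference changed sign. Over the 6 factors the median log2 fold change was 0.41, beside 0.10 over all 9287 genes tested, and 5 of 6 were above 0, beside 62.1% of all genes. None of the 6 was called, and 0.625% of all genes were. Without PA36 replicate 1 the median of the factors was 0.23. The 7 genes of the exon junction complex had a median of 0.05, with 4 of 7 above 0 and 0 called. Among its core, mago stood at 23.5 TPM in UPF1 RNAi heads, against 22.8 and 22.7 TPM in PA36 heads, and tsu at 27.1 TPM in UPF1 RNAi heads, between the 30.6 and 26.2 TPM of PA36. CG7483, the fly eIF4AIII, stood at 38.3 TPM in UPF1 RNAi heads, against 31.4 and 37.6 TPM in PA36 heads. The gene total of btz was 17.2 TPM in UPF1 RNAi heads, against 19.1 and 24.7 TPM in PA36 heads. Pym, which disassembles the complex, stood at 12.7 TPM in UPF1 RNAi heads, between the 14.6 and 12.6 TPM of PA36. The peripheral members RnpS1 and Acn stood at 24.0 and 110 TPM in UPF1 RNAi heads, against 18.3 and 22.2 TPM for RnpS1 and 66.2 and 95.2 TPM for Acn in PA36 heads.

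**Figure D1:**
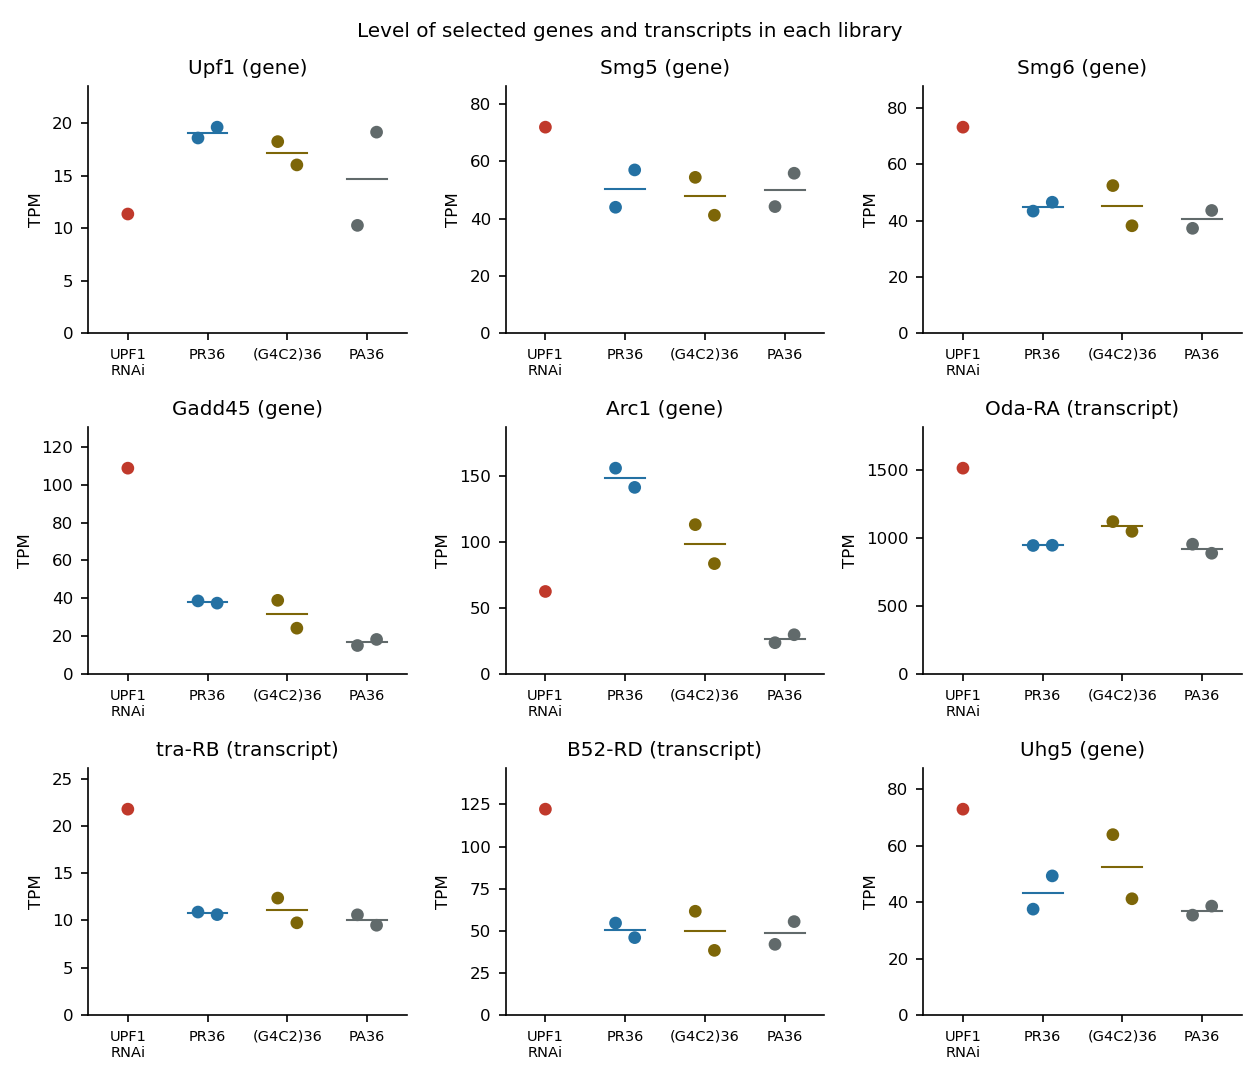
Level in TPM (y axes, each from 0) of 9 genes or transcripts in each library, with UPF1 RNAi, PR36, (G4C2)36 and PA36 along the x axes; points are libraries and short lines the mean of 2 libraries. Upf1 in UPF1 RNAi (11.3 TPM) lies between the PA36 libraries (10.3 and 19.1 TPM), while Smg6, Gadd45, Oda-RA, tra-RB and B52-RD are highest in UPF1 RNAi; the panels were chosen after the values were seen.

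Transcripts that differed between UPF1 RNAi and PA36 more often came with a change in the isoform's share of its gene than with a change of the gene total. The share was called in the same direction for 20 of 38 transcripts that rose and 40 of 63 that fell, and the gene total for 8 and 19. Of 15794 transcripts with a mean of at least 1 TPM, 38 (0.241%) rose and 63 (0.399%) fell in UPF1 RNAi. Together they were 0.639% of those tested. At an unadjusted p below 0.05 there were 538 higher and 539 lower transcripts, each 3.41%, or 6.82% in all. The median log2 fold change of all transcripts tested was 0.11, and 59.6% lay above 0, so class medians below are also given relative to that median. UPF1 RNAi lay outside all 6 other libraries for 30 of the 38 higher and 54 of the 63 lower transcripts, which were called from the same values. With each library centred on its median, UPF1 RNAi was highest for 18.7% and lowest for 16.6% of all transcripts tested. The share without centring was not counted. Both PA36 libraries lay apart from all 5 others for 13 of the higher and 9 of the lower transcripts. These counts overlap with those in which UPF1 RNAi lay outside all 6 others. Of the lower transcripts, 17 were listed at 0 in UPF1 RNAi, and of the higher ones 8 were listed at 0 in both PA36 libraries. No transcript was called when PR36 replicate 1, PR36 replicate 2 or PA36 replicate 2 was left out, with limma (1007, 1007 and 1343 at an unadjusted p below 0.05). Without PA36 replicate 1 there were 25 calls, and without either (G4C2)36 replicate 7.

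Libraries of all genotypes held transcripts that stood apart in this manner. By over 2 on the log2 scale, 67 transcripts lay above and 97 below all other libraries in UPF1 RNAi. The same counts were 48 above and 90 below in PR36 replicate 1, 38 and 52 in PR36 replicate 2, 84 and 76 in (G4C2)36 replicate 1, and 53 and 72 in (G4C2)36 replicate 2. In PA36 they were 31 and 86 in replicate 1 and 51 and 69 in replicate 2. UPF1 RNAi thus had the highest number below the others, and (G4C2)36 replicate 1 the highest number above. Among genes, where transcripts are summed, UPF1 RNAi had 7 above and 29 below, and the 6 other libraries had 3 to 12 above and 14 to 32 below. A transcript that stands apart in a single library is thus no rarity in these files.

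**Figure D2:**
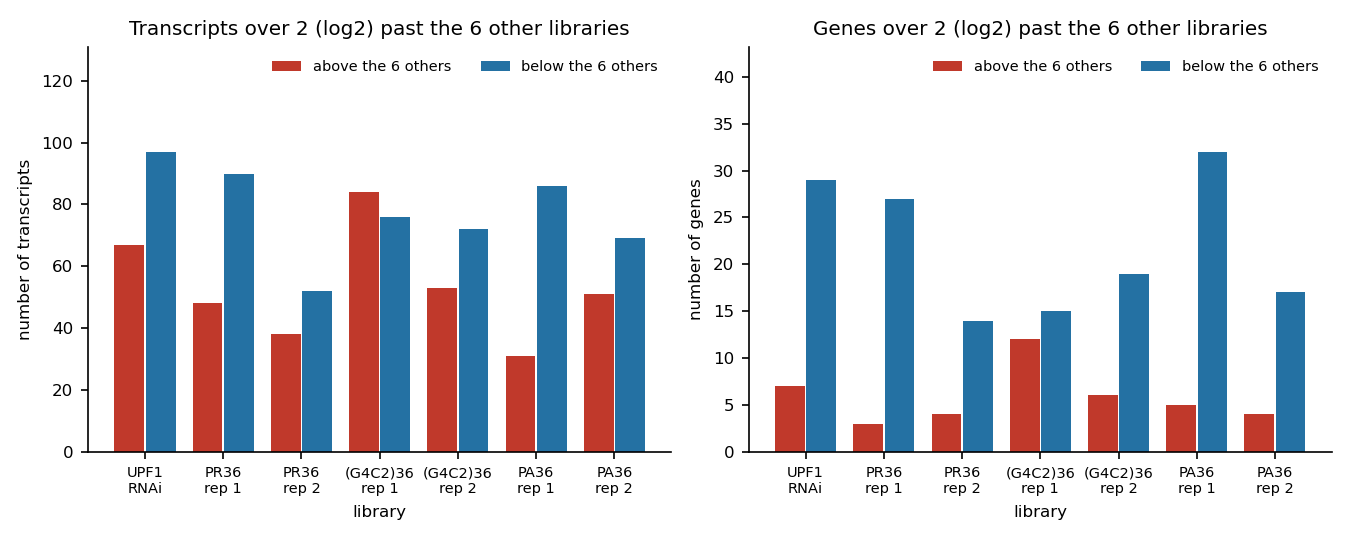
Number of transcripts (left, of 15794 tested) and genes (right, of 9287 tested) that lie over 2 on the log2(TPM + 1) scale above (red) or below (blue) all 6 other libraries, for each library on the x axis. UPF1 RNAi has 67 transcripts above and 97 below, and every other library has between 31 and 84 above and between 52 and 90 below.

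Isoforms replaced each other in 9 genes, in which 1 transcript rose and another fell while no gene total was called. In the annotation, both members of all 9 pairs have the same start codon and the same stop codon. They differ there in untranslated sequence, with a different transcription start in 6 pairs and a different 3′ end in 3. AdipoR (an adiponectin receptor homologue) gave the largest exchange by TPM. The isoform AdipoR-RD (3R:22544117-22547846) stood at 224 TPM in UPF1 RNAi heads, against 1.46 and 3.35 TPM in PA36 heads (log2 fold change 6.10, SE 0.50, limma adjusted p = 0.022). AdipoR-RA (3R:22543693-22547846) stood at 1.28 TPM in UPF1 RNAi heads, against 286 and 353 TPM in PA36 heads (-7.13, SE 0.21, adjusted p = 0.0035). AdipoR-RD, with a 3′ UTR of 306 bases in place of 730, made up 83.5% of the gene in UPF1 RNAi, against 0.488% and 0.912% in PA36. The PR36 and (G4C2)36 libraries were like PA36, with AdipoR-RA between 279 and 315 TPM.

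The gene for eRF3, the release factor that acts with Upf1 at stop codons, had an exchange between listed isoforms with different annotated start sites. Start sites themselves were not measured. The transcript eRF3-RA, with a 5′ UTR of 545 bases, stood at 45.5 TPM in UPF1 RNAi heads, against 2.04 and 2.80 TPM in PA36 heads (log2 fold change 3.78, SE 0.41, limma adjusted p = 0.042). The transcript eRF3-RD, with a 5′ UTR of 105 bases, stood at 0.352 TPM in UPF1 RNAi heads, against 45.1 and 57.2 TPM in PA36 heads (-5.26, SE 0.30, adjusted p = 0.012). The gene total was 49.2 TPM in UPF1 RNAi heads, against 51.9 and 63.9 TPM in PA36 heads, and did not pass. In tau, the microtubule-binding protein of axons, tau-RB stood at 86.7 TPM in UPF1 RNAi heads, against 0.134 and 0.135 TPM in PA36 heads. Its partner tau-RA stood at 0.427 TPM in UPF1 RNAi heads, against 64.4 and 68.8 TPM in PA36 heads. In both genes the isoform with the longer 5′ UTR was the higher one in UPF1 RNAi, and it was low in all 6 other libraries.

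In Hydr2 and CG1983 the isoform with the longer 3′ UTR rose, the reverse of AdipoR. Hydr2-RB (3′ UTR 1261 bases) stood at 38.9 TPM in UPF1 RNAi heads, against 0.974 and 0.902 TPM in PA36 heads, and Hydr2-RA (787 bases) at 3.62 TPM in UPF1 RNAi heads, against 49.2 and 40.6 TPM. CG1983-RB (731 bases) stood at 24.9 TPM in UPF1 RNAi heads, against 1.54 and 1.12 TPM in PA36 heads, and CG1983-RA (286 bases) at 1.90 TPM in UPF1 RNAi heads, against 22.5 and 29.7 TPM. CG34330 has a single exon, and its longer transcript CG34330-RB stood at 120 TPM in UPF1 RNAi heads, against 0.0352 and 0.0511 TPM in PA36 heads, while CG34330-RA was listed at 0 in UPF1 RNAi heads, against 112 and 152 TPM. All 5 genes named so far (AdipoR, eRF3, tau, Hydr2, CG1983) and CG34330 had UPF1 RNAi apart from all 6 other libraries.

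The remaining 3 pairs were shared with other genotypes. Tapdelta encodes a subunit of the translocon-associated complex, and Tapdelta-RA stood at 114 TPM in UPF1 RNAi heads and at 149 and 137 TPM in PR36 heads, against 1.98 and 1.19 TPM in PA36 heads. Its partner Tapdelta-RB stood at 0.0034 TPM in UPF1 RNAi heads, against 110 and 86.2 TPM in PA36 heads. Acbp1, an acyl-CoA binding protein, had Acbp1-RB at 33.5 TPM in UPF1 RNAi heads and at 41.1 and 50.6 TPM in PR36 heads, against 0.0170 and 0.0082 TPM in PA36 heads. Tapdelta-RA and Acbp1-RB were low in (G4C2)36 as in PA36. CG11593-RC stood at 21.9 TPM in UPF1 RNAi heads and between 19.5 and 25.2 TPM in PR36 heads and (G4C2)36, against 0.490 and 1.19 TPM in PA36 heads. In that gene it was PA36 that stood apart.

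**Figure D3:**
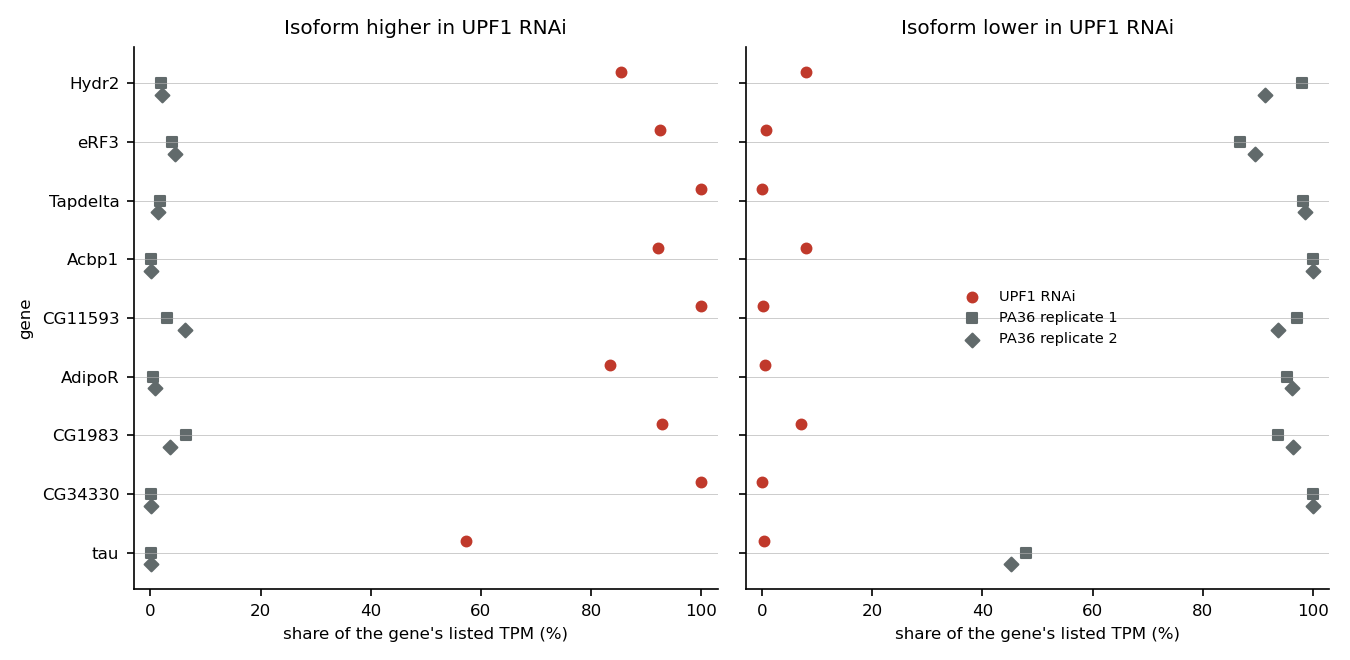
Share of the gene's listed TPM (x axes, percent) held by the isoform called higher (left) and the isoform called lower (right) in UPF1 RNAi, for the 9 genes with a called isoform in each direction (y axis); circles are UPF1 RNAi, squares PA36 replicate 1 and diamonds PA36 replicate 2. AdipoR-RD holds 83.5% in UPF1 RNAi, against 0.488% and 0.912% in PA36, and in every gene shown the UPF1 RNAi share lies far from both PA36 shares.

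Tested as a ratio of a transcript to its gene, 35 of 11191 isoforms (0.313%) rose and 93 (0.831%) fell in UPF1 RNAi, 1.14% in all. At an unadjusted p below 0.05, 3.01% were higher and 5.2% lower, together 8.21%, and 50.3% of ratios lay above 0. The mitochondrial aconitase gene mAcon1 had the lowest ratio. Its transcript mAcon1-RB (2L:21168651-21172895) stood at 0.155 TPM in UPF1 RNAi heads, against 345 and 602 TPM in PA36 heads (log2 fold change of the transcript -8.63, SE 0.42, limma adjusted p = 0.0098). The isoform mAcon1-RD stood at 519 TPM in UPF1 RNAi heads, against 15.1 and 4.27 TPM in PA36 heads, and just missed the test (adjusted p = 0.050). For ringer, a microtubule-binding protein, ringer-RD stood at 0.795 TPM in UPF1 RNAi heads, against 120 and 114 TPM in PA36 heads (-6.04, SE 0.20, adjusted p = 0.0035). Its longer form ringer-RA stood at 104 TPM in UPF1 RNAi heads, against 0.275 and 0.244 TPM in PA36 heads, but ranged from 0.413 to 34.1 TPM in PR36 heads and (G4C2)36 and was not called. CG44247-RA stood at 129 TPM in UPF1 RNAi heads and at 98.0 and 130 TPM in PR36 heads, against 0.207 and 0.314 TPM in PA36 heads (6.69, SE 0.31, adjusted p = 0.0089), and was low in (G4C2)36. CG14207-RD stood at 37.9 TPM in UPF1 RNAi heads, against 0.340 and 0.148 TPM in PA36 heads (4.97, SE 0.42, adjusted p = 0.024). CG6044-RG stood at 8.97 TPM in UPF1 RNAi heads, against 0.0184 and 0.0267 TPM in PA36 heads. These last 2 stood apart from all 6 other libraries. CtsL1-RD was the sole form of its gene in UPF1 RNAi heads at 11.4 TPM, against 7.71 and 2.998 TPM in PA36 heads, since CtsL1-RA was at 0. For the syntaxin gene, Syx1A-RA stood at 0.154 TPM in UPF1 RNAi heads, against 0.169 and 55.5 TPM in PA36 heads. Its ratio was called although PA36 replicate 1 was as low. With the pair of libraries rich in heat shock RNA left out, a setting chosen after the data were seen, 0 ratios and 0 transcripts were called by limma (1215 and 1114 at an unadjusted p below 0.05).

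Some transcripts were listed at 0 in 1 group, for which no fold is given. RpS21-RF, btz-RC, SK-RM and CG4250-RB reached the mean of 1 TPM only through UPF1 RNAi. So did CG34330-RB, tau-RB, Hydr2-RB, CG14207-RD and CG6044-RG above, and the genes CG11313 and pre-rRNA:CR45847 below. CtsL1-RA, and the genes CG12395 and Uhg1 below, reached it only through PA36. The direction of these changes is therefore not independent of the filter, and their adjusted p is no separate evidence. RpS21-RF, a form of a ribosomal protein gene with a 3′ UTR of 389 bases, stood at 145 TPM in UPF1 RNAi heads and was listed at 0 in all 6 other libraries (limma adjusted p = 0.012). RpS21-RE, with a 3′ UTR of 133 bases, stood at 241 TPM in UPF1 RNAi heads, against 522 and 446 TPM in PA36 heads. The exon junction complex gene btz had btz-RC at 14.8 TPM in UPF1 RNAi heads and at 0 in the 6 others (adjusted p = 0.046), whereas btz-RA stood at 0.573 TPM in UPF1 RNAi heads, against 5.88 and 16.2 TPM in PA36 heads. For SK, a calcium-activated potassium channel, SK-RM with a 3′ UTR of 5441 bases stood at 42.0 TPM in UPF1 RNAi heads and was listed at 0 in both PA36 libraries (adjusted p = 0.022). It was also at 0 in PR36 and at 0.406 and 0.114 TPM in (G4C2)36 heads. Bacc-RB stood at 87.5 TPM in UPF1 RNAi heads and at 162 and 130 TPM in (G4C2)36 heads, and was listed at 0 in both PR36 and both PA36 libraries (adjusted p = 0.0089). On the lower side, a transcript of ATPsynC that the reference annotation lacks (FBtr0305122) was listed at 0 in UPF1 RNAi heads, against 145 and 270 TPM in PA36 heads (adjusted p = 0.022). CG4250-RB stood at 27.0 TPM in UPF1 RNAi heads and at 0 in the 6 others. CtsL1-RA was listed at 0 in UPF1 RNAi, PR36 and (G4C2)36, against 472 and 428 TPM in PA36 heads (adjusted p = 0.0035), so here PA36 stood apart.

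Gene totals gave 20 genes that rose (0.215% of 9287) and 38 that fell (0.409%) in UPF1 RNAi, and 296 (3.19%) higher and 298 (3.21%) lower, 6.4% in all, at an unadjusted p below 0.05. BNIP3, a receptor for the removal of mitochondria, fell most among genes with a value in every library. The gene (3L:20514598-20519393) stood at 2.07 TPM in UPF1 RNAi heads, against 212 and 256 TPM in PA36 heads, and between 182 and 256 TPM in PR36 heads and (G4C2)36 (log2 fold change -6.25, SE 0.27, limma adjusted p = 5.6e-04). It was called under 16 of 16 alternatives. Calls of single transcripts held less often, for example under 10 of 15 alternatives for BNIP3-RA, 6 of 15 for AdipoR-RD and 4 of 15 for RpS21-RF. The gene totals of sesB, the mitochondrial ADP/ATP carrier, also fell, with 139 TPM in UPF1 RNAi heads, against 1040 and 1853 TPM in PA36 heads (-3.31, SE 0.37, adjusted p = 0.014). ND-39, a subunit of respiratory complex I, stood at 35.7 TPM in UPF1 RNAi heads, against 335 and 339 TPM in PA36 heads (-3.20, SE 0.43, adjusted p = 0.032). For these 3 genes UPF1 RNAi lay below all other libraries. Ip259 stood at 16.04 TPM in UPF1 RNAi heads, against 313 and 339 TPM in PA36 heads (-4.26, SE 0.24, adjusted p = 0.0017). The ribosomal protein gene RpL34a stood at 32.7 TPM in UPF1 RNAi heads, against 168 and 179 TPM in PA36 heads (-2.37, SE 0.26, adjusted p = 0.014). The fall of BNIP3, Ip259, sesB and a further gene, sordd2, was also called in a transcript. BNIP3-RA stood at 1.90 TPM in UPF1 RNAi heads, against 212 and 256 TPM in PA36 heads, and Ip259-RA at 2.83 TPM in UPF1 RNAi heads, against 299 and 325 TPM. sesB-RB stood at 12.4 TPM in UPF1 RNAi heads, against 453 and 889 TPM in PA36 heads. sordd2-RA was listed at 0 in UPF1 RNAi heads, against 38.2 and 55.8 TPM in PA36 heads. sesB overlaps other genes and RpL34a has near-identical relatives, so how reads were divided among them is uncertain.

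Listed at 0 in UPF1 RNAi were 15 of the 38 genes that fell. Kap3, the adaptor of kinesin-2, was at 0 in UPF1 RNAi heads, against 28.0 and 37.8 TPM in PA36 heads and 32.4 to 42.7 TPM in PR36 heads and (G4C2)36. The kinase gene wts of the Hippo pathway was at 0 in UPF1 RNAi and in both PR36 libraries, against 15.1 and 24.8 TPM in PA36 heads and 29.1 and 21.8 TPM in (G4C2)36 heads. Hs3st-A, a heparan sulfate sulfotransferase, was at 0 in UPF1 RNAi and both (G4C2)36 libraries, against 20.5 and 32.9 TPM in PA36 heads. Of the other genes at 0 in UPF1 RNAi, sordd2 stood at 43.1 and 80.3 TPM in PA36 heads (adjusted p = 0.0025), CG14969 at 15.8 and 17.2 TPM in PA36 heads (adjusted p = 0.0020), and EMC2A, of the ER membrane complex, at 13.7 and 11.7 TPM in PA36 heads (adjusted p = 0.013). These 3 were detected in all 6 other libraries. CG12395 was at 0 in UPF1 RNAi heads and at most 0.0797 TPM in PR36 heads and (G4C2)36, against 17.0 and 12.1 TPM in PA36 heads (adjusted p = 0.019). An exact 0 can be a failed estimate of the program that made the table. The Imd pathway caspase gene Dredd stood at 0.355 TPM in UPF1 RNAi heads, against 8.58 and 10.2 TPM in PA36 heads (-2.93, SE 0.33, adjusted p = 0.014).

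Among genes that rose, those with the highest values were in part equally high in the other genotypes. The tryptophan oxygenase gene v (vermilion) stood at 40.4 TPM in UPF1 RNAi heads and 38.7 to 51.3 TPM in PR36 heads and (G4C2)36, against 3.64 and 2.77 TPM in PA36 heads (log2 fold change 3.31, SE 0.27, limma adjusted p = 0.0045). Fdh, a formaldehyde dehydrogenase, stood at 122 TPM in UPF1 RNAi heads and 53.4 to 120 TPM in PR36 heads and (G4C2)36, against 12.0 and 9.24 TPM in PA36 heads (3.42, SE 0.32, adjusted p = 0.0064). The ER chaperone calnexin, Cnx99A, stood at 129 TPM in UPF1 RNAi heads and 53.3 to 116 TPM in PR36 heads and (G4C2)36, against 7.90 and 10.1 TPM in PA36 heads (3.71, SE 0.43, adjusted p = 0.016). In these genes PA36 was the low group. Su(var)3-3, a histone demethylase, stood apart in UPF1 RNAi instead, at 41.7 TPM in UPF1 RNAi heads, against 5.64 and 6.05 TPM in PA36 heads and 4.36 to 7.12 TPM in the other 4 libraries (2.64, SE 0.34, adjusted p = 0.026). IntS12, an Integrator subunit, stood at 25.8 TPM in UPF1 RNAi heads, against 3.80 and 3.75 TPM in PA36 heads, which were also the lowest, with 3.95 to 9.19 TPM in the other 4 libraries (2.49, SE 0.36, adjusted p = 0.041). Eh, the eclosion hormone, stood at 27.7 TPM in UPF1 RNAi heads, against 0.893 and 0 TPM in PA36 heads, with 16.8 and 17.5 TPM in PR36 heads and 0 in both (G4C2)36 libraries. CG11313 stood at 17.7 TPM in UPF1 RNAi heads and was listed at 0 in both PA36 libraries and at no more than 0.309 TPM in any other (adjusted p = 0.023). Phk-3 stood at 32.2 TPM in UPF1 RNAi heads and at 19.4 and 16.6 TPM in (G4C2)36 heads, against 0.800 and 0.964 TPM in PA36 heads, with PR36 near PA36 (4.14, SE 0.34, adjusted p = 0.0045). For 3 more genes PA36 was the lowest group. The gene e(r), enhancer of rudimentary, stood at 49.7 TPM in UPF1 RNAi heads, against 1.66 and 2.56 TPM in PA36 heads (4.04, SE 0.44, adjusted p = 0.014). It stood at 87.5 and 44.0 TPM in (G4C2)36 heads, and PR36 was near PA36, at 3.35 and 4.27 TPM. The ERK MAP kinase gene rl stood at 21.98 TPM in UPF1 RNAi heads and 9.31 to 58.3 TPM in the 4 PR36 and (G4C2)36 libraries, against 0.521 and 0.284 TPM in PA36 heads (4.04, SE 0.56, adjusted p = 0.035). CG32091 stood at 7.68 TPM in UPF1 RNAi heads and 9.50 to 18.1 TPM in the 4 others, and was listed at 0 in PA36 (adjusted p = 0.032). The ribosomal precursor RNA gene pre-rRNA:CR45847 stood at 53.6 TPM in UPF1 RNAi heads, against 0.251 and 0.241 TPM in PA36 heads, but it belongs to a repeated locus. Over the 20 genes that rose, both PA36 libraries lay apart from all 5 others in 12, and over the 38 that fell in 8. How often this held over all genes was not counted. The number of gene calls was 3 with UPF1 RNAi and PA36 fitted alone, 91 without PA36 replicate 2, and 239 with the pair of libraries rich in heat shock RNA left out.

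Transcripts with an exon junction more than 50 bases after the stop codon were, as a class, shifted to higher values in UPF1 RNAi by a small amount. In the BDGP6 annotation 1360 transcripts have such a late junction, of which 932 were listed and 565, from 387 genes, passed the filter on low values. Their median log2 fold change was 0.29, with quartiles of -0.15 and 0.75, or 0.19 relative to the median of all transcripts. Above 0 lay 67.1% of them, beside 59.6% of all transcripts tested. At an unadjusted p below 0.05, 8.5% were higher and 3.72% lower, beside 3.41% in each direction overall. After adjustment 3 of 565 rose (0.531%, beside 0.241% of all) and 1 fell (0.177%, beside 0.399%). The 3 that rose reached the filter, a mean over all 7 libraries, only through their UPF1 RNAi values. Their rise and their share are therefore not independent of the filter. The class median was 0.34 for 235 transcripts with at least 2 junctions after the stop and 0.26 for 330 with 1. It was 0.28 for 84 whose 3′ UTR holds a coding sequence of another transcript and 0.29 for the 481 others. Without PA36 replicate 1 the class median was 0.18, or 0.15 relative to all transcripts, and with no filter on low values 0.05.

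Transcripts with a long 3′ UTR, here the longest 10% (over 1404 bases), also lay higher in UPF1 RNAi as a class. Of 3073 in the annotation 2447 were listed and 1755, from 1037 genes, were tested. Their median was 0.31, or 0.20 relative to all transcripts, and 69.3% lay above 0. At an unadjusted p below 0.05, 5.98% were higher and 2.11% lower. After adjustment 2 rose (0.114%, beside 0.241%) and 4 fell (0.228%, beside 0.399%). The 2 that rose likewise reached the filter on low values only through UPF1 RNAi. The classes overlap in 271 transcripts. Outside the overlap medians were 0.31 for 1484 long 3′ UTRs with no late junction and 0.29 for 294 late junctions without a long 3′ UTR. The 13226 other coding transcripts had a median of 0.09, with 58.3% above 0. In 5 bins of coding transcripts of nearly equal size, ordered by 3′ UTR length, medians were 0.03 (up to 121 bases), 0.04, 0.10, 0.14 and 0.26 (949 to 18494 bases). Without PA36 replicate 1 the median of the long 3′ UTR class was 0.16, or 0.13 relative to all transcripts, and with no filter on low values it was 0.17.

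Both shifts, taken relative to all transcripts, were largest in UPF1 RNAi, with PR36 replicate 1 next. Not so taken, the late-junction median was 0.34 in (G4C2)36 replicate 1 and 0.29 in UPF1 RNAi. Relative to all transcripts and to the mean of PA36, the late-junction median was 0.19 in UPF1 RNAi. In PR36 it was 0.12 and 0.03, in (G4C2)36 0.05 and 0.06, and in PA36 0.00 and 0.00, where the libraries deviate from their own mean. The spread between replicates had a pooled standard deviation of 0.04 over the 3 replicated genotypes. For the long 3′ UTR class the values were 0.20 in UPF1 RNAi, 0.13 and -0.04 in PR36, -0.10 and 0.05 in (G4C2)36, and -0.05 and 0.05 in PA36, with a pooled standard deviation of 0.10. A single library has no spread of its own, and an exact permutation of 1 against 2 libraries cannot give a two-sided p below 0.3333, so neither shift was tested. For ranks, each library was centred on its median over all tested transcripts. UPF1 RNAi was then the highest of 7 libraries for 27.1% of late-junction and 29.2% of long 3′ UTR transcripts, beside 18.7% of all transcripts. PR36 replicate 1 was highest for 18.1% and 19.3%, beside 13.4%.

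**Figure D4:**
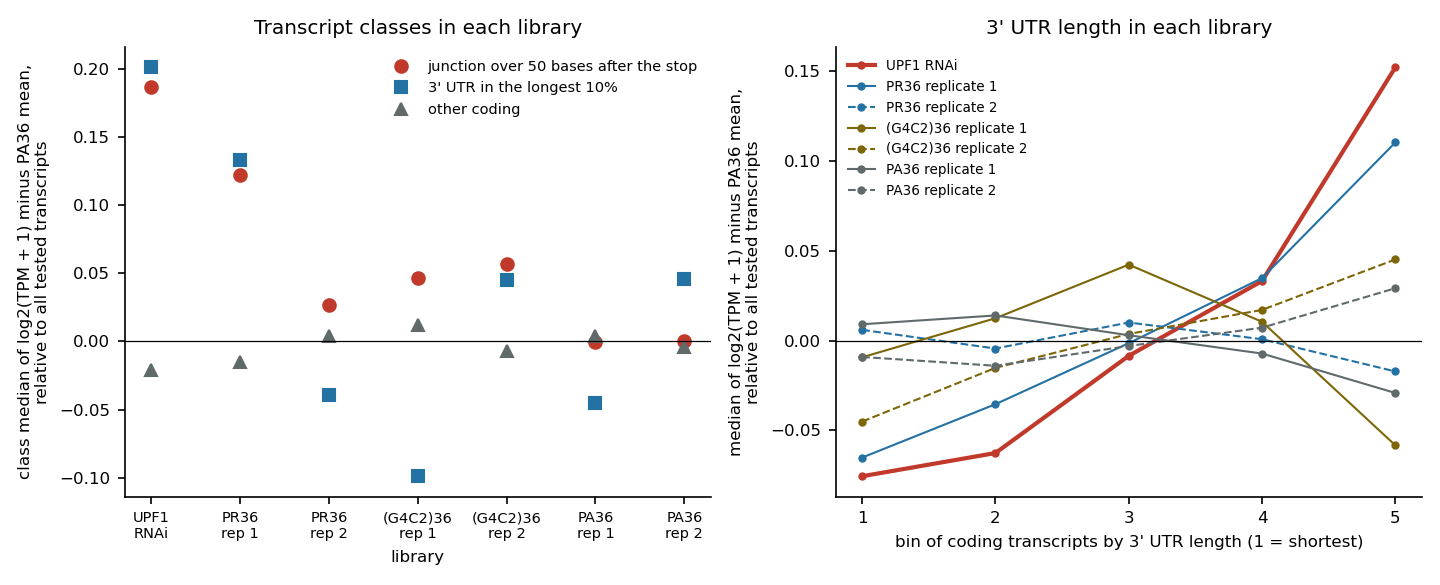
Left, median of log2(TPM + 1) minus the PA36 mean for transcripts with a junction over 50 bases after the stop (565), with a 3′ UTR in the longest 10% (1755) and for other coding transcripts (13226), relative to all tested transcripts (y axis), in each library (x axis). Right, the same median for 5 bins of coding transcripts by 3′ UTR length (x axis, 1 is the shortest), with 1 line per library; UPF1 RNAi has the highest value in bin 5 (0.15), followed by PR36 replicate 1 (0.11).

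UPF1 RNAi also had the highest share of its RNA in these classes among the 7 libraries. Late-junction transcripts held 1.97% of listed TPM in UPF1 RNAi heads, 1.71% and 1.55% in PR36, 1.57% and 1.51% in (G4C2)36, and 1.41% and 1.61% in PA36. Long 3′ UTR transcripts held 5.18% in UPF1 RNAi, 4.48% and 3.95% in PR36, 3.86% and 4.20% in (G4C2)36, and 3.48% and 4.26% in PA36. In 361 genes with coding transcripts of both kinds, the median share of late-junction forms within the gene was 15.5% in UPF1 RNAi, against 12.0% and 14.1% in PA36. It was 13.3% and 14.3% in PR36 and 13.1% and 13.0% in (G4C2)36. UPF1 RNAi lay above both PA36 libraries in 150 of these genes, below both in 77 and between them in 134. As ratios to the gene, 491 late-junction transcripts had a median log2 change of 0.04, with 1 higher and 2 lower calls. Relative to all transcripts, the median of the 565 tested late-junction transcripts was 0.19. The median change of the 491 ratios was thus smaller, over a different set of transcripts.

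The 4 called late-junction transcripts came from 3 loci. bru3-RB (3L:13537937-13666749), an isoform of an RNA-binding protein gene whose last junction lies 498 bases after the stop, stood at 13.3 TPM in UPF1 RNAi heads, against 0.0279 and 0.0283 TPM in PA36 heads (log2 fold change 3.80, SE 0.43, limma adjusted p = 0.046). In (G4C2)36 heads bru3-RB stood at 2.91 and 2.04 TPM, and in PR36 heads at 0.0450 and 0.0341 TPM. CG33995-RC and CG44000-RE share their start and end (2L:5044453-5048365) and are annotated with different reading frames. They stood at 18.3 and 16.5 TPM in UPF1 RNAi heads, against at most 0.0038 TPM in PA36 heads (adjusted p = 0.038 and 0.042), and their values are not independent. CG44001-RE shares their start, end and length, has no late junction and was also called higher, at 16.3 TPM in UPF1 RNAi heads. Other tested late-junction forms of the locus had log2 fold changes below 0, and none was called. These were -1.87 for CG33995-RB, -2.35 for CG44000-RC, -0.78 for CG44000-RB and -0.52 for CG44000-RD. The gene totals were at 1.29 for CG33995 and -0.20 for CG44000. nSyb, the synaptobrevin of synaptic vesicles, gave the call in the other direction. nSyb-RH, with a junction 81 bases after the stop, stood at 27.4 TPM in UPF1 RNAi heads, against 167 and 203 TPM in PA36 heads and 161 to 191 TPM in the other 4 libraries (-2.70, SE 0.22, adjusted p = 0.022). nSyb-RF, which has no late junction, fell too, at 0.124 TPM in UPF1 RNAi heads, against 18.6 and 17.8 TPM in PA36 heads (-4.09, SE 0.27, adjusted p = 0.016).

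Other late-junction transcripts had large differences that the test did not pass. sqd-RB, from an hnRNP gene, stood at 70.0 TPM in UPF1 RNAi heads, against 0.213 and 1.53 TPM in PA36 heads, with 0.800 and 27.6 TPM in PR36 heads (log2 fold change 5.34, SE 1.63, limma adjusted p = 0.52). Ank2-RK, a long form of the neuronal ankyrin, stood at 95.5 TPM in UPF1 RNAi heads, against 1.14 and 7.49 TPM in PA36 heads, with 8.71 and 56.8 TPM in (G4C2)36 heads. Mf-RK and CNBP-RB stood at 26.8 and 23.1 TPM in UPF1 RNAi heads and were listed at 0 in both PA36 libraries. For each of these 4 transcripts, the replicates of another genotype differed widely. On the lower side, cpx-RG (complexin, which clamps synaptic vesicle fusion) stood at 1.15 TPM in UPF1 RNAi heads, against 86.1 and 99.3 TPM in PA36 heads, and at 121 and 0.992 TPM in (G4C2)36 heads. tmod-RL stood at 0.532 TPM in UPF1 RNAi heads, against 19.4 and 16.2 TPM in PA36 heads (-3.61, SE 0.62, adjusted p = 0.14). Of the other late-junction forms with the greatest differences, CG46315-RA stood at 57.3 TPM in UPF1 RNAi heads, against 8.91 and 0 TPM in PA36 heads, and Idh3g-RB at 187 TPM in UPF1 RNAi heads, against 120 and 0 TPM. Lower in UPF1 RNAi were nSyb-RJ, at 0.142 TPM in UPF1 RNAi heads, against 17.5 and 20.9 TPM in PA36 heads, and Sam-S-RB, at 1.25 TPM in UPF1 RNAi heads, against 29.1 and 41.3 TPM. CG11151-RB stood at 0.284 TPM in UPF1 RNAi heads, against 17.6 and 18.6 TPM in PA36 heads. Sap47-RK stood at 9.0e-04 TPM in UPF1 RNAi heads, against 14.2 and 12.7 TPM in PA36 heads, and CG9674-RI at 0.398 TPM in UPF1 RNAi heads, against 31.5 and 32.8 TPM. cpx-RC stood at 0.0304 TPM in UPF1 RNAi heads, against 0.0836 and 106 TPM in PA36 heads. These last 3 were each below 1 TPM in a library of another genotype as well. None of these 8 passed the test. Within the long 3′ UTR class, SK-RM and CG33995-RC rose, while Hs3st-A-RA, tral-RD, wrd-RK and Cow-RD fell. Cow-RD stood at 16.6 TPM in UPF1 RNAi heads and 24.2 and 26.5 TPM in PR36 heads, against 137 and 126 TPM in PA36 heads.

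Of 4 genes reported as NMD targets in flies, Gadd45 rose and the other 3 did not pass, although all 4 lay above both PA36 libraries. The share of all genes that lay above both was not counted. Gadd45 (2R:7249161-7250655) stood at 109 TPM in UPF1 RNAi heads, 38.6 and 37.4 TPM in PR36 heads, 38.9 and 24.2 TPM in (G4C2)36 heads, and 15.1 and 18.3 TPM in PA36 heads. The log2 fold change was 2.64 (SE 0.33, limma adjusted p = 0.023), and UPF1 RNAi lay above all 6 other libraries. Gadd45 has a single listed transcript, for which the test over transcripts gave an adjusted p of 0.064. The gene was called under 14 of 16 alternatives, and not with UPF1 RNAi and PA36 fitted alone or with no filter. tra, the sex determination gene, has a form with a late junction by alternative splicing, tra-RB (508 bases after the stop). tra-RB stood at 21.8 TPM in UPF1 RNAi heads, against 10.6 and 9.50 TPM in PA36 heads and 9.75 to 12.4 TPM in the other 4 libraries (log2 fold change 1.05, SE 0.27, adjusted p = 0.39). tra-RA, with no such junction, stood at 4.11 TPM in UPF1 RNAi heads, between the 3.73 and 4.61 TPM of PA36. tra-RB thus made up 84.1% of tra in UPF1 RNAi, 74.3% and 71.6% in PR36, 68.8% and 80.1% in (G4C2)36, and 74.0% and 67.3% in PA36.

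For Oda, the ornithine decarboxylase antizyme, which needs a ribosomal frameshift to avoid an early stop, the difference lay in its main transcript. Oda-RA stood at 1511 TPM in UPF1 RNAi heads, against 953 and 886 TPM in PA36 heads and 944 to 1119 TPM in the other 4 libraries (log2 fold change 0.72, SE 0.18, limma adjusted p = 0.36). Oda-RC stood at 336 TPM in UPF1 RNAi heads, against 395 and 335 TPM in PA36 heads. Arc1, the capsid-forming synaptic gene, stood at 62.7 TPM in UPF1 RNAi heads and higher still in PR36 (156 and 142 TPM) and (G4C2)36 (113 and 83.8 TPM), against 23.8 and 29.8 TPM in PA36 heads (1.20, SE 0.29, adjusted p = 0.26). Unlike the other 3, Arc1 was therefore not highest in UPF1 RNAi. The median of the 4 was 1.01, beside 0.10 over all genes tested. This list was drawn up with earlier results of these data known, and its direction is no independent evidence.

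Splicing regulators of the SR and hnRNP families are known in animals for poison exons, which carry a stop codon and send the mRNA to NMD. Of 16 such genes tested, 15 lay above 0 and 13 above both PA36 libraries, with a median log2 fold change of 0.36, and 0 were called (0.625% of all genes were). Over all genes tested the median was 0.10 and 62.1% lay above 0. How many of all genes lay above both PA36 libraries was not counted. Without PA36 replicate 1 the median of the 16 genes was 0.14. B52, an SR protein, stood at 278 TPM in UPF1 RNAi heads, against 160 and 195 TPM in PA36 heads (0.65, SE 0.29, limma adjusted p = 0.82). Its transcript B52-RD, with a junction 2010 bases after the stop, stood at 122 TPM in UPF1 RNAi heads, against 42.0 and 55.5 TPM in PA36 heads and 38.4 to 61.6 TPM in the other 4 libraries (1.32, SE 0.36, adjusted p = 0.43). B52-RF, with 2895 bases, stood at 11.7 TPM in UPF1 RNAi heads, against 2.75 and 0.893 TPM in PA36 heads. B52-RA, without a late junction, stood at 18.8 TPM in UPF1 RNAi heads, against 30.4 and 33.0 TPM in PA36 heads. Late-junction forms of B52 held 84.1% of the gene in UPF1 RNAi, 67.7% and 62.7% in PR36, 72.9% and 67.6% in (G4C2)36, and 64.0% and 70.0% in PA36. SC35 differed from B52, since its late-junction form held 41.4% in UPF1 RNAi, within the range of 21.3% to 57.6% of the other libraries. Over 12 late-junction transcripts of splicing regulators in 4 genes the median was 0.47, with 8 above 0, 5 above both PA36 libraries and 0 called. Over all transcripts tested the median was 0.11 and 59.6% lay above 0, and the number above both PA36 libraries was not counted. Rsf1-RB, a form of another splicing factor gene without a late junction, fell to 2.78 TPM in UPF1 RNAi heads, against 22.1 and 18.1 TPM in PA36 heads (-2.47, SE 0.28, adjusted p = 0.046).

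Host genes of snoRNAs carry short reading frames or none, and their spliced RNA is degraded by NMD in several species. Of 6 tested, 4 lay above both PA36 libraries and none of these 4 passed, 1 lay below both and was not called, and Uhg1 fell. How often genes in general lay above or below both was not counted. Uhg5 (2R:14621601-14624498) stood at 73.0 TPM in UPF1 RNAi heads, against 35.4 and 38.6 TPM in PA36 heads and 37.5 to 64.0 TPM in the other 4 libraries (log2 fold change 0.96, SE 0.33, limma adjusted p = 0.59). Uhg4 stood at 33.0 TPM in UPF1 RNAi heads, against 9.43 and 18.1 TPM in PA36 heads, and Uhg3 at 5.07 TPM in UPF1 RNAi heads, against 1.25 and 1.56 TPM. Uhg8 stood at 4.75 TPM in UPF1 RNAi heads, against 1.74 and 2.34 TPM in PA36 heads. These 4 were higher in UPF1 RNAi than in any other library, and the share of all genes highest there was not counted. Nop60B, which also encodes the pseudouridine synthase, stood at 23.7 TPM in UPF1 RNAi heads, against 29.1 and 38.2 TPM in PA36 heads. Uhg1 was listed at 0 in UPF1 RNAi, PR36 and (G4C2)36, against 13.0 and 10.02 TPM in PA36 heads (adjusted p = 0.027).

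Among stress genes, Xrp1, a bZIP factor of the translation stress response, came closest to a call. It stood at 516 TPM in UPF1 RNAi heads, against 158 and 184 TPM in PA36 heads (log2 fold change 1.60, SE 0.26, limma adjusted p = 0.061). The 13 genes of the integrated stress response had a median of 0.25 (0.09 without PA36 replicate 1 and 0.38 without PA36 replicate 2), with 10 above 0 and 0 called. The 21 genes of decapping, deadenylation and the exosome had a median of 0.10, with 14 above 0 and 0 called, and the sign of the median turned without PA36 replicate 1 (-0.07, against 0.29 without PA36 replicate 2). Heat shock genes had a median of -2.05 over 14 genes, which was 0.45 without PA36 replicate 1 and -4.11 without PA36 replicate 2, and none was called. Their part in the other results was not tested, beyond the values given without both libraries in which they were high.

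Markers of head cell types gave no call. Markers of neurons, in which the RNAi was driven, summed to 940 TPM in UPF1 RNAi heads, against 897 and 1182 TPM in PA36 heads, and those of photoreceptors to 45358 TPM, against 37677 and 39569 TPM. The 6 tested neuronal markers had a median log2 fold change of 0.50, which was 0.14 without PA36 replicate 1 and 0.86 without PA36 replicate 2. Those of glia had a median of 0.12. Markers of the fat body summed to 48741 TPM in UPF1 RNAi heads, between 75902 and 38749 TPM in PA36 heads, with a median of -0.14 that changed sign with the library left out (0.22 without PA36 replicate 1, -0.63 without PA36 replicate 2). Muscle markers had a median of -0.25 over 5 genes (-0.04 and -0.42 without PA36 replicate 1 and 2). Those of hemocytes were lower, with a sum of 80.4 TPM in UPF1 RNAi heads, against 129 and 220 TPM in PA36 heads, and a median of -1.01 over 4 genes. Gut markers were near 0, with 2 of 5 listed and sums of at most 0.200 TPM in any library. Neuronal and photoreceptor markers were thus present in all 3 libraries. The part of cell composition in the differences above was not tested.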

How the data were processed

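Per the submitters' processing notes, bcl2fastq, HISAT2 2.1, HISAT and the BDGP6 genome build were used. The authors deposited 1 table of TPM per transcript. Which program made these values, with which annotation and strand setting, is not given in the sources used here. Of 11 cells per line, the 1 without a header name was left out. Transcript structure was read from BDGP6 (Ensembl release 115), which holds 99.4% of listed transcripts, and coordinates are 1-based.

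Values were analysed as log2(TPM + 1), which understates folds of low transcripts. Transcripts and genes (sums of listed transcripts, for 11597 of 13656 genes complete) with a mean of at least 1 TPM, and ratios of a transcript to its gene (gene mean of at least 5 TPM, at least 2 listed transcripts), were fitted with limma 3.58.1 in R 4.3.3. The fit had 1 coefficient per genotype over 7 libraries and moderation with a trend, and tests were two-sided. Residual degrees of freedom were 3, and prior ones 2.03 for transcripts, 4.14 for genes and 1.15 for ratios. The fit was tested on simulated data with known changes.

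The members and lists were chosen with earlier results of these data known. Called features with a higher group of at least 5 TPM and UPF1 RNAi outside both PA36 libraries are named by size, up to 12 transcripts, 10 genes and 8 ratios each way, with all NMD factors and reported targets; others were chosen after their values were seen. Upstream reading frames were planned as a class and were not computed, since no genome sequence was used here. Replicate numbers did not pair libraries (correlations of 0.03, -0.04 and -0.04 between same-numbered deviations). Python 3.11.15, pandas 2.3.3, numpy 2.4.6 and matplotlib 3.10.9 were used for joins and figures.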

Additional observations from a re-analysis of the deposited data

How the results depend on the processing

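Called transcripts numbered 101. The number was 396 with no filter on low values, 152 with limma without trend, and 5 with the replicate number as a replicate block. With UPF1 RNAi and PA36 fitted alone it was 0 (1278 at an unadjusted p below 0.05), and with both libraries with high heat shock genes left out 0 (1114), a setting chosen after seeing the data. It ranged from 0 to 25 with 1 library left out. Called genes numbered 58, against 3 with UPF1 RNAi and PA36 alone, 66 under the replicate block, 239 with both heat shock libraries left out, and 39 to 91 with 1 library left out. The 128 called ratios became 0 with UPF1 RNAi and PA36 alone (1003 at an unadjusted p below 0.05), 40 under the replicate block, 0 with both heat shock libraries left out (1215), and 87 to 140 with 1 library left out. The cause was not tested. UPF1 RNAi has 1 library and could not be left out.

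The late-junction median (0.29) was 0.053 with no filter and 0.18 to 0.37 with 1 library left out. The long 3′ UTR median (0.31) was 0.17 with no filter, 0.16 with both heat shock libraries left out and 0.16 to 0.39 with 1 library left out. Both stayed above 0 under all alternatives run, including junctions over 30 or 100 bases after the stop (0.28 and 0.31) and the longest 5 in 100 of 3′ UTRs (0.33).

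Gene differences that changed sign were never called. By the median of ratios mago was at -0.047, and with listed TPM scaled to 1 sum tsu was at 0.022. With 1 library left out Upf1 ranged from -0.71 to 0.13, tsu from -0.17 to 0.045, Pym from -0.18 to 0.017 and nonC from -0.15 to 1.03. With both heat shock libraries left out tsu was at 0.045, Pym at 0.017 and nonC at -0.15. Of 93 named features, 31 lost their call under the replicate block and 61 with UPF1 RNAi and PA36 alone. The 62 and 32 that kept their side of the threshold include features that were not called in the main fit. Rescaling by the median of ratios brought the median of all transcripts to 0.02 and left 150 calls. The depth is unknown, so no floor for values listed at 0 is given, and classes of upstream reading frames were not run.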

Other observations

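Genes of MAP kinase signalling and apoptosis that act with or beside Gadd45 had a median log2 fold change of 0.12 over 15 genes tested (0.14 without PA36 replicate 1 and 0.23 without PA36 replicate 2), with 12 above 0, 6 above both PA36 libraries and 0 called. Of all genes tested 62.1% lay above 0, and how many lay above both PA36 libraries was not counted. The ERK gene rl, which rose, is not on the list of MAP kinase and apoptosis genes. The caspase gene Dronc stood at 8.18 TPM in UPF1 RNAi heads and 8.60 to 9.36 TPM in PR36 and (G4C2)36 heads, against 17.7 and 17.3 TPM in PA36 heads (limma adjusted p = 0.34). The JNK gene bsk stood at 140 TPM in UPF1 RNAi heads, against 112 and 102 TPM in PA36 heads. Antimicrobial peptide genes, which report immune signalling, had a median of 0.21 over 8 genes tested (0.74 without PA36 replicate 1 and 0.03 without PA36 replicate 2), with 5 above 0 and 0 called.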
